A study of Mus musculus with 9 samples.

Results

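The xenobiotic-metabolising enzyme families are the genes whose proteins oxidise, hydrolyse or conjugate drugs, dietary chemicals, steroids and lipid products so that they can be excreted. They were taken here as the genes named Cyp1, Cyp2 or Cyp3 (cytochromes P450), Fmo (flavin-containing monooxygenases), Ephx1 (microsomal epoxide hydrolase), Gst (glutathione S-transferases), Ugt1, Ugt2 or Ugt3 (UDP-glycosyltransferases) and Sult (cytosolic sulfotransferases). A gene needed a probe set with 1 symbol, its brightest probe set stood for it, and its mean over the 9 arrays had to lie at or above the 30th percentile of all probe sets, which was 2.65 on the log2(intensity + 1) scale. Of 117 genes that matched by name, 76 reached that level, of 17740 genes that reached it in all. The 76 comprised 3 Cyp1, 31 Cyp2, 1 Cyp3, 6 Fmo, 2 Gsta, 6 Gstm, 10 other Gst, 5 Ugt2, 2 Ugt3 and 9 Sult genes, and Ephx1. No Ugt1 gene had a probe set with a single symbol, so that family was not analysed here.

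Oxidising enzymes such as P450s and flavin monooxygenases add or expose a reactive oxygen group, and epoxide hydrolase opens the epoxides that some of them make. Transferases then attach glutathione, glucuronic acid or sulfate, which makes the product water-soluble and ready for export. In the kidney these enzymes are found mainly in the proximal tubule, where they act on filtered and secreted compounds and on endogenous lipids such as arachidonic acid.

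The tissue was renal cortex of male C57BLKS/J mice aged 20 weeks, and the labels call it kidney. The lean controls, db/m, carry 1 mutated copy of the leptin receptor gene; db/db mice carry the mutation on both copies and become obese and diabetic. One db/db group received saline by gavage, and the other received Tang-shen Formula (TSF), a Chinese herbal preparation, at 2.4 g/kg/day for 12 weeks, to look for the targets through which it acts on diabetic kidney injury. Each group had 3 arrays called biological replicates in the labels, 9 arrays in all, although 9 mice are stated for each db/db treatment arm, and the labels do not tie an array to a mouse, so p-values measure the spread between these arrays.

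Values are Affymetrix array intensities, and their medians per array ran from 10.3 to 11.2. The leading component of a principal component analysis (32.3%) set the db/m arrays apart from the other 6, and the next (16.6%) had db/db replicate 3 and db/db+TSF replicate 2 at its ends. The mean level of 10 proximal tubule markers lay between 11.17 and 11.29 over all 9 arrays. Neutrophil markers had a mean level of 5.07 on db/db replicate 3, against 2.78 to 2.93 on the db/m and db/db+TSF arrays. The array is bulk tissue, so fewer cells of a type and less RNA per cell cannot be told apart. All levels and differences below are on the log2(intensity + 1) scale, where a difference of 1 is a doubling, and the level of one gene is not set against that of another because probes differ in brightness. A gene passed the test when its limma p, adjusted by the Benjamini-Hochberg method over the 17740 genes, was at or under 0.05.

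In db/db against db/m, 9 of the 76 enzyme genes passed the test, 11.8% of them, where 187 of 17740 genes passed, or 1.05%. Of the 9, 6 rose (Gsto1, Ugt2b34, Cyp2d26, Ephx1, Gsta4 and Gsta3; 0.592% of all genes rose) and 3 fell (Ugt2b37, Fmo5 and Cyp2j13; 0.462% of all genes fell). They belong to 6 of the 11 gene groups, and within both Cyp2 and Ugt2 one gene rose and another fell. The median difference of the 76 was 0.016, beside 0.01 over all genes, and 41 lay above and 35 below 0, where 52.2% and 47.8% of all genes did. The values of the 2 groups did not overlap for 24 of the 76, or 31.6%, against 18.6% of all genes; db/db was the higher for 13 and the lower for 11, against 10.4% and 8.28% of all genes. Only Ugt2b37, Fmo5 and Cyp2j13 among the 9 differed by 2-fold or more.

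**Figure D1:**
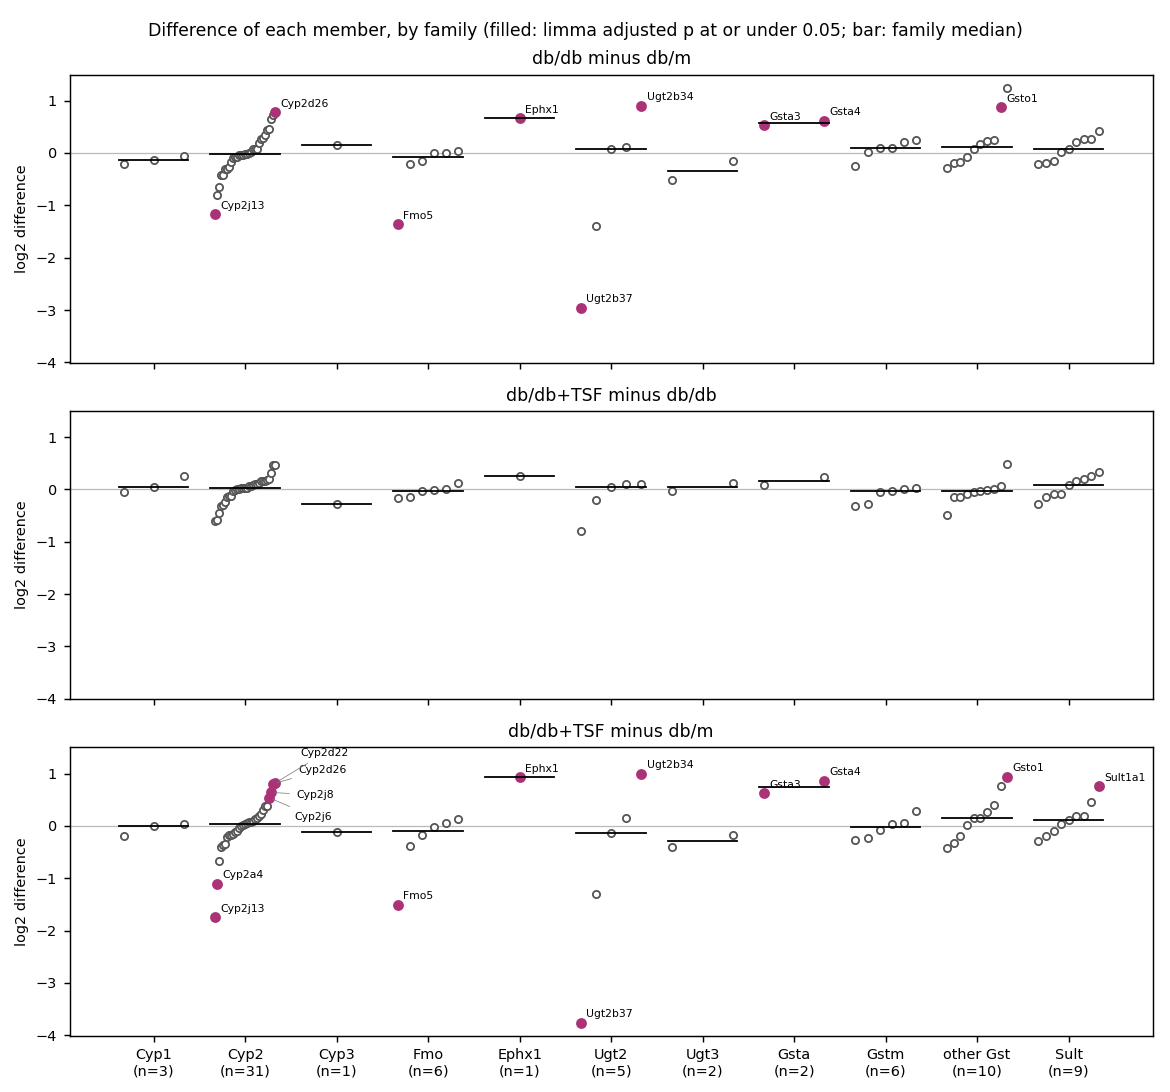
Difference of each of the 76 enzyme genes on the log2(intensity + 1) scale, in the 3 comparisons, grouped by family along the horizontal axis. Filled points passed limma's adjusted p of 0.05, open points did not, and the bar is the family median. The Gsta genes, Ephx1 and Gsto1 lie above 0 and Fmo5, Cyp2j13 and Ugt2b37 below 0 in the upper and lower panels, and no point is filled in the middle panel, db/db+TSF minus db/db.

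Among the oxidising enzymes, Fmo5, a flavin monooxygenase that inserts oxygen next to ketones, had levels of 8.28, 8.57 and 8.71 on the db/m arrays. It read 7.24, 7.25 and 7.01 in db/db and 6.98, 6.71 and 7.36 in db/db+TSF. All 6 arrays of the db/db groups lay below all 3 db/m arrays, and the db/db and db/db+TSF arrays overlapped. Fmo5 fell by 1.36 in db/db (SE 0.163, 2.56-fold, adjusted p = 0.00335). The other 5 Fmo genes, Fmo1, Fmo2, Fmo4, Fmo6 and Fmo9, lie on chromosome 1 while Fmo5 lies on chromosome 3. The differences of these 5 ran from -0.21 to 0.04, none past the test. Fmo1 and Fmo2, which oxidise nitrogen and sulfur atoms of many drugs, read between 10.39 and 10.71 and between 9.98 and 10.52, in that order, over all 9 arrays.

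Cyp2d26, a member of the P450 subfamily that in humans metabolises many drugs, had levels of 9.44, 9.77 and 9.82 in db/m. Its db/db levels were 10.41, 10.50 and 10.45, and its db/db+TSF levels 10.39, 10.58 and 10.48. Every array of either db/db group stood above every db/m array. Cyp2d26 rose by 0.78 (SE 0.112, 1.72-fold, adjusted p = 0.00839). Cyp2d22, at the other end of the same gene cluster, read 7.96, 8.36 and 8.52 in db/m and 8.80, 9.04 and 8.96 in db/db, again without overlap, with a difference of 0.65 that missed the threshold at an adjusted p of 0.0502. The 5 Cyp2d members between them, Cyp2d9, Cyp2d12, Cyp2d34, Cyp2d37-ps and Cyp2d40, differed by -0.42 to 0.01.

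Cyp2j13 belongs to a subfamily known for making epoxides of arachidonic acid. Its levels were 9.85, 10.31 and 10.06 in db/m, 9.14, 9.08 and 8.48 in db/db, and 7.98, 8.17 and 8.83 in db/db+TSF. The db/m arrays were highest, and the 2 db/db groups overlapped. Cyp2j13 fell by 1.17 (SE 0.228, 2.25-fold, adjusted p = 0.0374). Its neighbours on chromosome 4 did not share the size of that fall: Cyp2j6 and Cyp2j8 had differences of 0.45 (adjusted p = 0.0903) and 0.44 (adjusted p = 0.211), and the other 4 of the 7 Cyp2j members lay between -0.31 and 0.02. Cyp2j5, the member known as a main renal arachidonic acid epoxygenase, read 11.42 to 11.59 over the 9 arrays.

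The remaining Cyp2 genes did not pass in this comparison. Cyp2e1, which oxidises ethanol and acetone, read 11.80, 11.97 and 11.95 in db/m and 11.47, 11.60 and 11.41 in db/db. The groups did not overlap, and the difference of -0.41 had an adjusted p of 0.0776. Cyp2a4, a testosterone hydroxylase, read 9.79, 9.63 and 9.93 in db/m and 9.22, 9.14 and 8.54 in db/db, without overlap, a difference of -0.81 with an adjusted p of 0.0859. Cyp2c68 had a difference of 0.72 (adjusted p = 0.20) that drew on db/db replicate 2 at 4.18, where the other db/db arrays read 3.38 and 3.10. Over the 31 Cyp2 genes, 14 lay above and 17 below 0, with a median of -0.02.

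The Cyp1 genes are the classical targets of the aryl hydrocarbon receptor (AHR), a sensor of planar aromatic compounds. Cyp1a1 read 3.34, 3.27 and 3.46 in db/m and 3.02, 3.29 and 3.12 in db/db, with overlap and an adjusted p of 0.378 for a difference of -0.21. Cyp1b1 read 5.99, 6.0 and 5.94 in db/m and 5.86, 5.82 and 5.83 in db/db, a difference of -0.14 with an adjusted p of 0.601. None of the 3 Cyp1 genes passed, 0 had an unadjusted p under 0.05, and all 3 lay below 0. Cyp3a11, a main drug-oxidising P450 of mouse liver and the single Cyp3 gene above the intensity level, had a difference of 0.15 (adjusted p = 0.622).

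Ephx1 read 8.06, 7.95 and 7.72 in db/m, 8.47, 8.56 and 8.70 in db/db, and 8.96, 8.62 and 8.93 in db/db+TSF. All arrays of both db/db groups were above the db/m arrays. Ephx1 rose by 0.67 in db/db (SE 0.125, 1.59-fold, adjusted p = 0.0317).

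**Figure D2:**
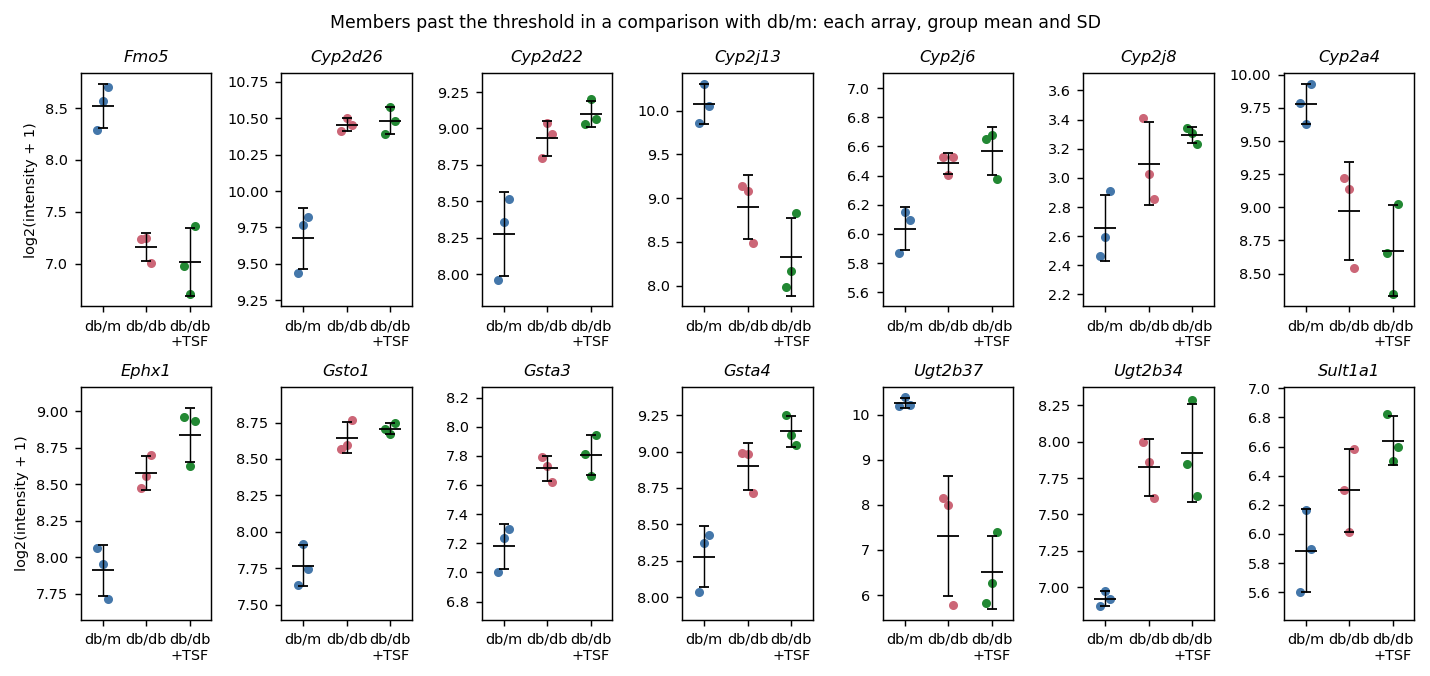
Level of the 14 enzyme genes that passed the test in at least 1 comparison with db/m, as log2(intensity + 1) on the vertical axis, with a separate range for each gene. Points are single arrays, 3 per group, and the bars are the group mean and SD. Ugt2b37 has the widest spread, 5.77 to 8.15 among the db/db arrays against 10.19 to 10.39 in db/m, and the 3 Gsto1 arrays of db/db+TSF lie between 8.67 and 8.74.

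Among the glutathione transferases, Gsto1, an omega-class enzyme that reduces dehydroascorbate and methylated arsenic, had the smallest adjusted p of the 76 genes. It read 7.64, 7.92 and 7.75 in db/m, 8.57, 8.60 and 8.77 in db/db, and 8.71, 8.67 and 8.74 in db/db+TSF. The gap between the db/m arrays and the other 6 was wider than the spread within any group. Gsto1 rose by 0.88 in db/db (SE 0.099, 1.84-fold, adjusted p = 0.00296). Gsto2, its omega-class relative, overlapped between db/m (3.40 to 3.83) and db/db (3.52 to 3.80).

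Both Gsta genes above the intensity level rose. Gsta4, which clears reactive aldehydes formed by lipid peroxidation, read 8.04, 8.37 and 8.43 in db/m and 8.99, 8.99 and 8.71 in db/db. Gsta3, an alpha-class enzyme known in mice for conjugating the aflatoxin epoxide, read 7.0, 7.23 and 7.30 in db/m and 7.79, 7.73 and 7.62 in db/db. Neither gene's groups overlapped. Gsta4 rose by 0.62 (SE 0.125, adjusted p = 0.0458) and Gsta3 by 0.53 (SE 0.110, adjusted p = 0.0483). The 6 Gstm genes, a cluster on chromosome 3, differed by -0.25 to 0.25 and none passed, 0 had an unadjusted p under 0.05, and the groups overlapped for each of them.

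Gstp3, a pi-class gene, read 5.08, 4.89 and 5.35 in db/m, 5.67, 6.44 and 6.95 in db/db, and 6.13, 5.75 and 5.73 in db/db+TSF. Both db/db groups lay above db/m, but the db/db arrays were far apart, and the difference of 1.25 (SE 0.261) missed the threshold at an adjusted p of 0.0503. Its neighbours Gstp1 and Gstp2 on chromosome 19 had differences within -0.17 to -0.07, and both overlapped between the groups. Gstt3, a theta-class gene, differed by 0.24 with an adjusted p of 0.287.

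The promoter of Gsta3 is shown because the antioxidant response element, the motif bound by the stress-response factor NRF2, is best known from promoters of alpha-class transferases. It is the window chr1:21240335-21240584 on the plus strand of GRCm38.p6, the 250 bases before the start that the RefSeq promoter table uses; the gene's outermost RefSeq start is at 21240565, so the end of the window lies within the gene. It is printed with letters that match a searched motif in capitals.
Gsta3: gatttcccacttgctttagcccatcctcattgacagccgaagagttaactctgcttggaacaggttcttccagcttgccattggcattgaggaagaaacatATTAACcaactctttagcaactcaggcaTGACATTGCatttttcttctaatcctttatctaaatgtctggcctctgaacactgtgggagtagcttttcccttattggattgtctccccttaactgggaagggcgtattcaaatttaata
The capitals are 1 match to the antioxidant element, written TGACNNNGC, and 1 to the HNF1 half-site, written GTTAAT, which appears here as its reverse complement. Both strands were searched. The antioxidant motif stood in 2.5% of the 79 promoters matched to 66 of the enzyme genes and in 10.2% of all 32851 promoters of the same length. A match says only that these letters occur.

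The glucuronosyltransferases of the Ugt2 cluster on chromosome 5 moved in opposite directions. Ugt2b37 read 10.19, 10.39 and 10.20 in db/m, 8.15, 7.99 and 5.77 in db/db, and 5.83, 6.27 and 7.40 in db/db+TSF. The db/m arrays lay close together, while both db/db groups lay far below them and ranged widely. Ugt2b37 fell by 2.96 in db/db (SE 0.547, 7.77-fold, adjusted p = 0.0305), the largest difference among the 76 genes. Ugt2b34 read 6.87, 6.98 and 6.92 in db/m, 8.0, 7.86 and 7.61 in db/db, and 7.85, 8.29 and 7.63 in db/db+TSF. No array of either db/db group overlapped db/m. Ugt2b34 rose by 0.90 (SE 0.156, 1.87-fold, adjusted p = 0.0233).

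Ugt2b38 read 9.23, 9.16 and 9.08 in db/m, 8.33, 8.05 and 6.88 in db/db, and 7.41, 8.03 and 8.14 in db/db+TSF. The db/m arrays were above all others, but the difference of -1.40 (SE 0.312) did not pass, with an adjusted p of 0.0612. Ugt2b1 had a difference of 0.11 with an adjusted p of 0.784, and turned to -0.09 without db/db replicate 3. The order of the 5 analysed genes along the chromosome is Ugt2b34, Ugt2b1, Ugt2b37, Ugt2a3 and Ugt2b38. Ugt2b35, Ugt2b36 and Ugt2b5, which were under the intensity level, lie between Ugt2b1 and Ugt2b37. The gene that rose and the gene that fell are thus not next to each other. Ugt3a1, which uses N-acetylglucosamine in place of glucuronic acid, read 9.99, 10.21 and 10.02 in db/m and 9.57, 9.40 and 9.68 in db/db, a difference of -0.52 with an adjusted p of 0.0565. Ugt3a2, its relative, differed by -0.15 (adjusted p = 0.513).

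The promoters of the 2 Ugt2 genes that passed are shown because these genes of the same cluster moved in opposite directions. Each is the 250 bases before the gene's start in GRCm38.p6, on the minus strand: chr5:86906938-86907187 for Ugt2b34 and chr5:87254789-87255038 for Ugt2b37.
Ugt2b34: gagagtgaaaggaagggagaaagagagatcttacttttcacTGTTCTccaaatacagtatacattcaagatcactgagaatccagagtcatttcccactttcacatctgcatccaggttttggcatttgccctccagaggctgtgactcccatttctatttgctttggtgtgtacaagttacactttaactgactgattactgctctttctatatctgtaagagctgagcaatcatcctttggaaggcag
Ugt2b37: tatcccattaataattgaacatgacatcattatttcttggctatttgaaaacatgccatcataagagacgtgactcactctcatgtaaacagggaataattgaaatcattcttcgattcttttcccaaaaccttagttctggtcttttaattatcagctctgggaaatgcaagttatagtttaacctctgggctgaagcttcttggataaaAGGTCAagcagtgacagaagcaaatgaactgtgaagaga
The capitals in Ugt2b34 are 1 match, as the reverse complement, to the steroid receptor half-site, written AGAACA, and those in Ugt2b37 are 1 match to the nuclear receptor half-site, written AGGTCA. The first motif stood in 20.3% of the enzyme gene promoters and 16.1% of all promoters, and the second in 17.7% and 14%. The AHR core GCGTG stood in 21.5% of the enzyme gene promoters and 28.2% of all, and the HNF1 half-site in 12.7% and 6.4%. None of the motif letters overlap another match in these windows.

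**Figure D3:**
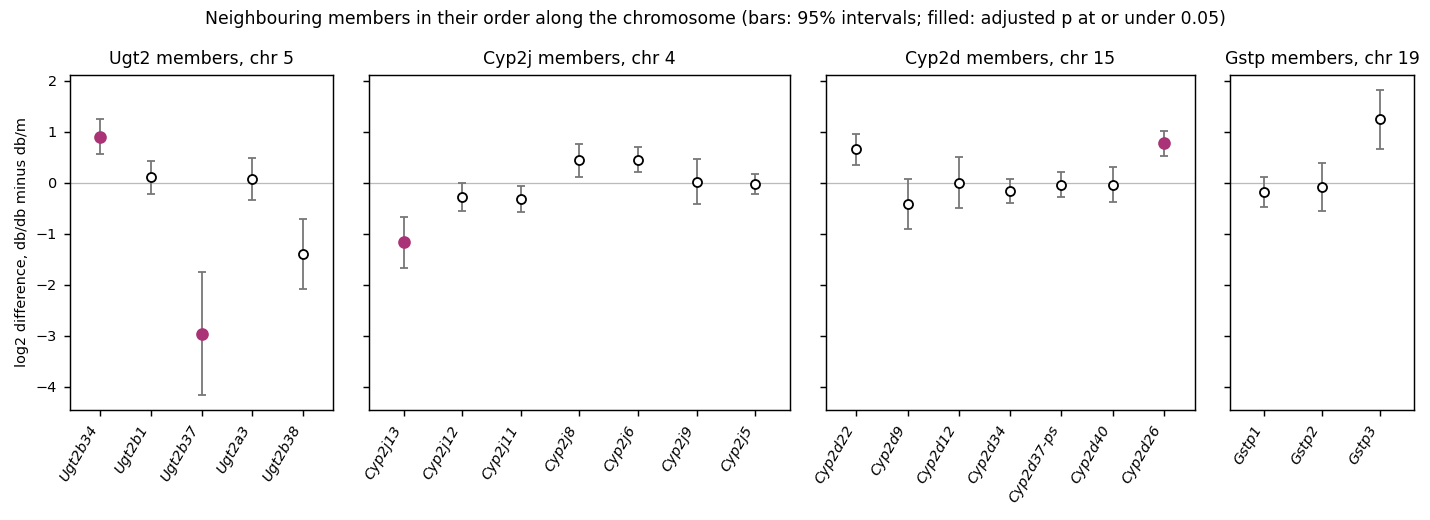
Difference between db/db and db/m of the analysed enzyme genes in 4 clusters, in their order along the chromosome in the RefSeq annotation of GRCm38.p6. Genes under the intensity level, some of which lie between those shown, are left out. Points are log2 differences with 95% intervals, and filled points passed the test. Within the Ugt2 cluster Ugt2b34 lies at 0.90 and Ugt2b37 at -2.96, and in the Cyp2d cluster Cyp2d22 and Cyp2d26, at the 2 ends, lie above the 5 genes between them.

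No sulfotransferase passed in this comparison, and 3 of the 9 had an unadjusted p under 0.05, beside 13.9% of all genes. Sult1a1, the main phenol sulfotransferase, read 5.60, 6.16 and 5.90 in db/m and 6.30, 6.01 and 6.58 in db/db, with overlap and a difference of 0.41 (adjusted p = 0.307). Sult1d1, which sulfates catecholamines, read 10.54, 10.77 and 10.63 in db/m and 11.01, 10.67 and 11.03 in db/db, a difference of 0.26 (adjusted p = 0.342). Of the 9 Sult genes, 6 lay above and 3 below 0, with a range of -0.22 to 0.41.

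Most of these calls did not hold in every fit that left out 1 array. Such a fit has fewer arrays, so a call near the threshold can be lost whichever array is left out. Cyp2d26, Fmo5 and Gsto1 passed whichever of the 9 arrays was left out. Without db/m replicate 1, db/m replicate 2 or db/m replicate 3, the number of enzyme genes past the test went from 9 to 3, 3 and 4, and without db/db replicate 1, 2 or 3 to 5, 4 and 5; without db/db+TSF replicate 3 it was 6. The call of Ugt2b37 was lost without any 1 of the db/m arrays (adjusted p up to 0.0911) and kept without any 1 of the other arrays. Gsta4 lost its call whichever array was left out (adjusted p up to 0.149), Gsta3 in all but the fit without db/db+TSF replicate 2 (up to 0.155), and Cyp2j13, Ephx1 and Ugt2b34 without any 1 db/m array, among others (adjusted p up to 0.113, 0.114 and 0.0977). Over all 23 alternative settings run for each of the 9 genes, the adjusted p ranged from 0.00116 to 0.0418 for Gsto1, from 0.00206 to 0.1 for Fmo5, from 0.00249 to 0.095 for Cyp2d26 and from 0.0228 to 0.227 for Ugt2b37, and the direction of each of the 9 was kept.

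With the formula, in db/db+TSF against db/db, limma passed 0 of the 76 enzyme genes and 0 of 17740 genes, a background of 0%. At an unadjusted p under 0.05 there were 9 enzyme genes, 11.8%, beside 11.7% of all genes. The groups did not overlap for 7 enzyme genes, 9.21%, against 20.1% of all genes; db/db+TSF was the higher for 6 and the lower for 1, against 7.81% and 12.3%. The smallest adjusted p was 0.284, the differences ran from -0.80 to 0.48, and their median was 0.011 beside -0.02 over all genes. Of the 76, 41 lay above and 35 below 0, beside 43.9% and 56.1% of all genes. For 70 of the 76 the 95% interval of the difference lay within 2-fold in either direction. It reached beyond 2-fold for Cyp2b10, Cyp2c68, Cyp2j13, Cyp2r1, Gstp3 and Ugt2b37, so for these 6 a 2-fold difference lies within the interval.

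The enzyme genes with the smallest p in this comparison are described although none passed. Cyp2c55, a P450 that oxidises arachidonic and linoleic acid, read 4.32, 4.07 and 3.99 in db/db and 4.35, 4.65 and 4.80 in db/db+TSF. The groups did not overlap, with the nearest arrays at 4.32 and 4.35, and the difference was 0.47 (SE 0.128, adjusted p = 0.284). A second, dimmer probe set of Cyp2c55, whose mean of 2.19 lay under the intensity level, gave -0.08. Sult2b1, which sulfates cholesterol and hydroxysteroids, read 3.11, 3.22 and 3.35 in db/db and 2.92, 2.95 and 2.96 in db/db+TSF, a difference of -0.28 (adjusted p = 0.317). Cyp1a1 read 3.40, 3.31 and 3.49 in db/db+TSF, above all 3 db/db arrays and overlapping the db/m arrays, with a difference of 0.26 from db/db (adjusted p = 0.384).

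Cyp2f2, a P450 best known for activating naphthalene in the airway, read 7.87, 8.23 and 8.16 in db/db and 7.68, 7.90 and 7.74 in db/db+TSF, a difference of -0.31 with overlap (adjusted p = 0.36). A second, dimmer probe set of Cyp2f2, whose mean of 4.39 lay above the intensity level, gave -0.48. Cyp2j13 and Cyp2c68 had differences of -0.58 (adjusted p = 0.384) and -0.60 (adjusted p = 0.386), both with overlapping arrays. The 9 genes that passed between db/db and db/m had the following differences with the formula: Gsto1 0.06, Ugt2b34 0.10, Cyp2d26 0.03, Ephx1 0.26, Gsta4 0.24, Gsta3 0.09, Ugt2b37 -0.80, Fmo5 -0.15 and Cyp2j13 -0.58. The 95% interval was -0.16 to 0.28 for Gsto1, -0.01 to 0.54 for Ephx1 and -2.0 to 0.41 for Ugt2b37. Both comparisons use the db/db arrays, so these values are given side by side and not as a relation.

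**Figure D4:**
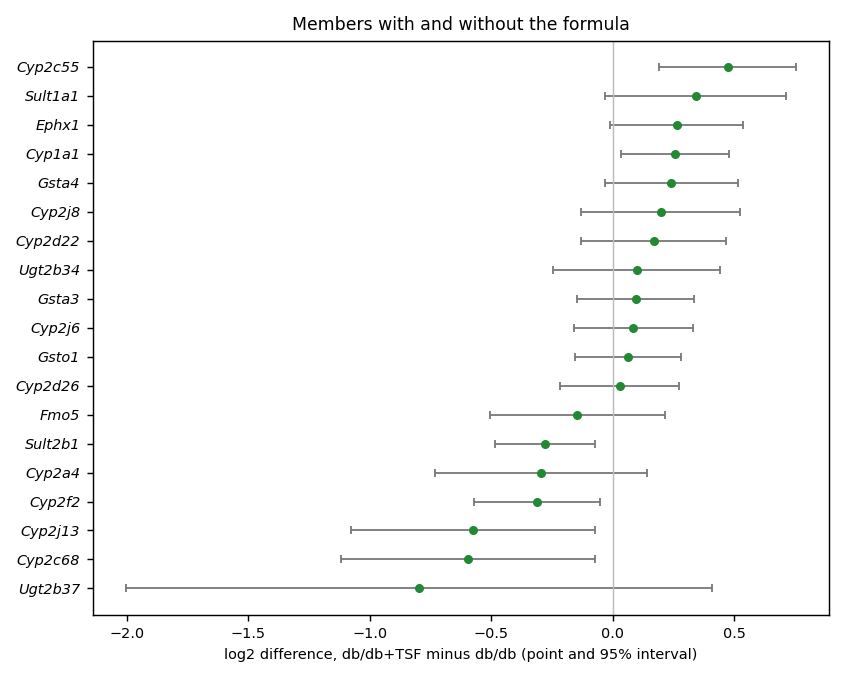
Difference between db/db+TSF and db/db of 19 enzyme genes, those that passed in a comparison with db/m and those of smallest p here, as points with 95% intervals on the log2(intensity + 1) scale. The widest interval, -2.0 to 0.41, belongs to Ugt2b37, and none of the 19 passed the adjusted test although the intervals of Cyp2c55, Cyp1a1, Sult2b1, Cyp2f2, Cyp2j13 and Cyp2c68 do not reach 0.

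In db/db+TSF against db/m, 14 of the 76 enzyme genes passed, 18.4%, where 556 of 17740 genes did, or 3.13%. Of the 14, 10 rose and 4 fell, where 1.22% and 1.92% of all genes did; with the arrays scaled to one median, 9 rose and 6 fell. The groups did not overlap for 35 enzyme genes, 46.1%, against 22.1% of all genes; db/db+TSF was the higher for 19 and the lower for 16, against 9.76% and 12.4%. The median difference was 0.03 beside 0 over all genes, and 42 lay above and 34 below 0, where 50% of all genes lay on either side. The 9 genes that passed in db/db against db/m all passed here: Ugt2b37 fell by 3.76, Cyp2j13 fell by 1.74 and Fmo5 fell by 1.5, and Ugt2b34 rose by 1.0, Gsto1 by 0.94, Ephx1 by 0.93, Gsta4 by 0.86, Cyp2d26 by 0.81 and Gsta3 by 0.63. Both comparisons share the db/m arrays. The adjusted p of these 9 lay between 0.000904, for Gsto1, and 0.0135, for Gsta3.

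The 5 others were Cyp2a4, Cyp2d22, Cyp2j6, Cyp2j8 and Sult1a1. Cyp2a4 read 8.65, 8.34 and 9.03 in db/db+TSF and fell by 1.11 against db/m (SE 0.198, 2.16-fold, adjusted p = 0.0146). Cyp2d22 read 9.03, 9.20 and 9.06 and rose by 0.82 (SE 0.136, adjusted p = 0.0106). Cyp2j6, an arachidonic acid and drug oxidising P450, read 5.87, 6.15 and 6.09 in db/m and 6.65, 6.68 and 6.38 in db/db+TSF, and rose by 0.53 (adjusted p = 0.0294). These 3 genes had also been separated from db/m without overlap in db/db, where they did not pass.

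Cyp2j8 read 2.46, 2.59 and 2.91 in db/m and 3.34, 3.31 and 3.24 in db/db+TSF, and rose by 0.64 (adjusted p = 0.0447), at levels close to the intensity cutoff. Sult1a1 read 6.82, 6.5 and 6.60 in db/db+TSF and rose by 0.75 (SE 0.169, adjusted p = 0.0379). The difference between the formula and saline arms was itself tested above, and none of these 5 passed it: Cyp2a4 had -0.30, Cyp2d22 0.17, Cyp2j6 0.08, Cyp2j8 0.20 and Sult1a1 0.34. Just outside the threshold were Ugt2b38, with -1.29 and an adjusted p of 0.0502, Cyp2e1, with -0.41 and 0.0507, and Sult1d1, with 0.47 and 0.0539. For Gstp3 the difference was 0.76 with an adjusted p of 0.158.

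With each of the 9 arrays left out in turn, 9 of these 14 calls held in every fit, namely Cyp2d22, Cyp2d26, Cyp2j13, Ephx1, Fmo5, Gsta4, Gsto1, Ugt2b34 and Ugt2b37. The count of 14 went to 9 without db/m replicate 1 and lay between 10 and 15 without any other single array. Cyp2a4 was lost without db/m replicate 1, db/m replicate 3 or db/db+TSF replicate 2 (adjusted p up to 0.0541), Gsta3 without db/m replicate 1 or db/db+TSF replicate 3 (up to 0.0637), and Cyp2j6 without db/m replicate 1, db/m replicate 3, db/db+TSF replicate 1 or db/db+TSF replicate 2 (up to 0.111). Cyp2j8 was lost without db/m replicate 1, db/m replicate 2, db/db replicate 2 or any 1 db/db+TSF array (up to 0.143), and Sult1a1 without db/m replicate 1, db/m replicate 3, db/db replicate 1 or any 1 db/db+TSF array (up to 0.123). Over 23 alternatives the adjusted p ranged from 0.0055 to 0.133 for Cyp2a4 and from 0.00664 to 0.0843 for Gsta3, from 0.0211 to 0.131 for Cyp2j6 and from 0.0274 to 0.178 for Sult1a1, and over 22 from 0.0197 to 0.180 for Cyp2j8.

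The markers of the S3 segment, the last straight stretch of the proximal tubule, were read beside the enzyme genes with lower levels in the db/db groups. Those enzyme genes were picked for being lower, so a direction shared with lower markers does not show a relation. The mean level of its 3 markers (Slc7a13, Slc22a7 and Atp11a) ran from 9.33 to 9.85 on the db/m arrays, from 7.46 to 7.90 on the db/db arrays and from 5.78 to 7.68 on the db/db+TSF arrays. Slc22a7, an organic anion transporter, fell by 3.25 in db/db (adjusted p = 0.0275), while Slc7a13 and Atp11a had differences of -1.37 (adjusted p = 0.326) and -1.15 (adjusted p = 0.0764). All 3 fell past the test in db/db+TSF against db/m, where 1.92% of all genes did. Slc22a7 fell by 3.36, Slc7a13 by 2.70 and Atp11a by 1.71. On db/db replicate 3, where Ugt2b37, Ugt2b38, Cyp2j13, Cyp2a4 and Fmo5 had their lowest db/db level, the 3 markers did not run together. Slc7a13 read 9.71, 9.63 and 8.75 in db/db and Atp11a 9.43, 9.43 and 9.27, both lowest on replicate 3, while Slc22a7 read 3.85, 3.31 and 5.70, highest on it. Among the db/db+TSF arrays, Slc7a13, Slc22a7 and Atp11a were lowest on replicate 2, at 6.27, 3.11 and 7.96. Cyp2a4 and Fmo5 were also lowest there, at 8.34 and 6.71. Ugt2b37, Ugt2b38 and Cyp2j13 were lowest on replicate 1, at 5.83, 7.41 and 7.98. The part of the S3 markers in the lower levels of these enzyme genes was not tested.

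**Figure D5:**
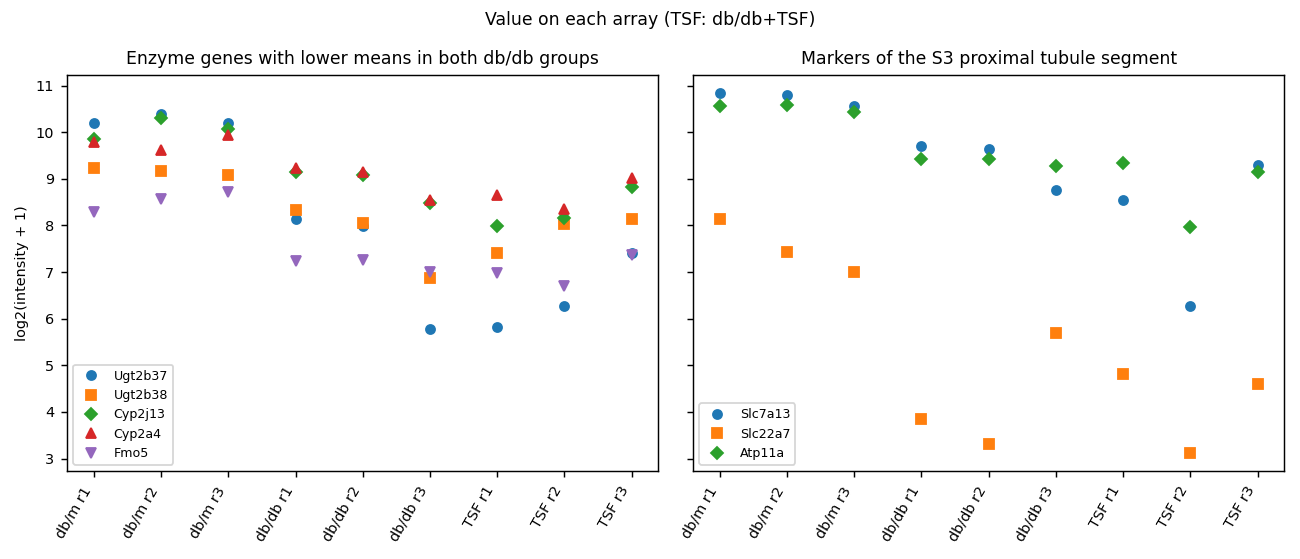
Level on each of the 9 arrays, as log2(intensity + 1), of 5 enzyme genes with lower means in both db/db groups (left) and of the 3 markers of the S3 segment of the proximal tubule (right); r1 to r3 are replicate names with no order. Fmo5 lies between 6.71 and 7.36 in the db/db groups, Ugt2b37 between 5.77 and 8.15, and Slc7a13 and Atp11a are lowest on db/db+TSF replicate 2, at 6.27 and 7.96.

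Many of these enzymes are most familiar from the liver, so hepatocyte markers were read beside them. The 8 hepatocyte markers had a mean level between 5.30 and 5.70 on the db/m arrays, between 5.40 and 5.49 on the db/db arrays and between 5.0 and 5.45 on the db/db+TSF arrays. Of the 8, 1 passed in db/db against db/m, where 1.05% of all genes did: Apoh, which fell by 0.78 (adjusted p = 0.019). In db/db+TSF against db/m 2 of the 8 passed, where 3.13% of all genes did. Apoh fell by 1.33 (adjusted p = 0.000479) and Serpina1c by 1.74 (adjusted p = 0.0485). Ttr was higher without overlap in both comparisons, by 0.82 and 0.94, and did not pass (adjusted p = 0.204 and 0.0961). Alb had 0.48 and 0.52, with overlap (adjusted p = 0.36 and 0.252). The 6 adrenal cortex markers stayed at 2.57 to 2.77 over all arrays, with 4 of the 6 under the intensity cutoff. The mean level of loop and distal tubule markers lay between 9.85 and 9.93 in db/m and between 10.17 and 10.37 in the db/db groups. Macrophage markers lay between 5.62 and 5.69 in db/m, between 5.35 and 5.46 in db/db and between 5.06 and 5.31 in db/db+TSF. Of the 4, 3 fell past the test in db/db+TSF against db/m, where 1.92% of all genes did. Adgre1, Cd68 and Csf1r fell by 0.56, 0.42 and 0.83 (adjusted p = 0.0239, 0.0267 and 0.0301). Of the loop and distal tubule markers, Calb1 rose by 0.68 in db/db (adjusted p = 0.0483) and by 1.04 in db/db+TSF (adjusted p = 0.00336) against db/m, and Pvalb rose by 0.54 in db/db+TSF (adjusted p = 0.0215).

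The 4 adipocyte markers had a mean level between 3.25 and 4.70 on the db/m arrays, between 3.18 and 3.27 on the db/db arrays and between 3.29 and 3.41 on the db/db+TSF arrays. The highest value belonged to db/m replicate 2, where Cidec read 5.56 and Retn 5.60, and 0 of the 4 passed limma's adjusted test or had an unadjusted p under 0.05 in any of the 3 comparisons. The 2 measured lymphocyte markers lay between 4.03 and 4.29 in db/m, between 3.73 and 3.84 in db/db and between 3.80 and 3.96 in db/db+TSF. One of them, Cd3e, fell by 0.78 in db/db (adjusted p = 0.0239) and by 0.58 in db/db+TSF (adjusted p = 0.0467) against db/m. Collecting duct markers lay between 7.95 and 8.24 in db/m, between 8.23 and 8.50 in db/db and between 8.06 and 8.29 in db/db+TSF. Podocyte markers lay between 6.92 and 7.16 in db/m, between 7.12 and 7.24 in db/db and between 7.22 and 7.33 in db/db+TSF. The part of these markers in the enzyme gene levels was not tested.

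The enzymes that supply cofactors were represented by 14 tested genes. In db/db against db/m, 0 of the 14 rose and 1 fell, where 0.592% and 0.462% of all genes did, with a median of -0.19, beside 0.01 over all genes. The 1 was Me1, malic enzyme, which makes NADPH, the electron source of P450s, and which fell by 0.85 (adjusted p = 0.00677). The genes of glutathione synthesis, Gclc, Gclm and Gss, had differences of -0.32, -0.28 and -0.24, none past the test. Against db/m, Me1 also fell by 0.73 in db/db+TSF (adjusted p = 0.00776), and Slc13a1, a sulfate transporter, rose by 0.40 (adjusted p = 0.0364). In db/db, Slc13a1 had 0.26 without overlap and did not pass (adjusted p = 0.215).

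The 7 tested genes of mercapturate processing act on glutathione conjugates or on later products, and not all of them form mercapturates. Their median was -0.35 in db/db against db/m, with 6 below 0, beside 47.8% of all genes. Of the 7, 4 (Acy1, Acy3, Kyat1 and Lap3) had an unadjusted p under 0.05, where 13.9% of all genes did. None passed limma's adjusted test, where 1.05% of all genes did. Dpep1, Anpep and Nat8 differed by -0.07, -0.15 and 0.09. Acy3, which removes the acetyl group from mercapturates, had -0.40 (adjusted p = 0.0936). Lap3, a leucine aminopeptidase, fell by 0.43 in db/db+TSF against db/m (adjusted p = 0.042). In db/db it had -0.40 without overlap and did not pass (adjusted p = 0.0895). Among these tested genes of cofactor supply and mercapturate processing, 0 passed upward in db/db against db/m, where 0.592% of all genes did.

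Among 20 tested regulators of these families, 0 passed limma's adjusted test in db/db against db/m, beside 1.05% of all genes. Of the 20, 6 had an unadjusted p under 0.05, beside 13.9% of all genes. Ahr, the receptor itself, had 0.29 (adjusted p = 0.142), Nr1i2, the pregnane X receptor, 0.66 (adjusted p = 0.0709), Nr1i3, the constitutive androstane receptor, 0.16 (adjusted p = 0.673), and Nfe2l2, which encodes NRF2, 0.12 (adjusted p = 0.63). Ppara, a fatty acid receptor, and Hlf, a circadian factor, rose by 0.72 and 0.42 in db/db+TSF against db/m (adjusted p = 0.0239 and 0.033), and Esr1, an estrogen receptor, fell by 1.08 (adjusted p = 0.0168). In db/db against db/m, Esr1 had -0.885 and Hlf 0.36, both without overlap (adjusted p = 0.0657 and 0.0936). Ppara had 0.29 there, with overlap (adjusted p = 0.397). None of the 4 AHR targets outside the families passed limma's adjusted test in either comparison with db/m, where 1.05% and 3.13% of all genes did. An unadjusted p under 0.05 was found for 0 of them, beside 13.9% and 17.2% of all genes. Tiparp and Aldh3a1, those of smallest p, had 0.20 (adjusted p = 0.524) and -0.17 (adjusted p = 0.573) in db/db against db/m. Of 10 NRF2 targets outside the families, 0 rose and 1, Me1, fell in each comparison with db/m. Of all genes, 0.592% rose and 0.462% fell in db/db, and 1.22% and 1.92% in db/db+TSF. In db/db against db/m 8 of the 10 lay below 0, beside 47.8% of all genes.

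Other enzymes that act on foreign compounds moved in both directions. Of 26 tested genes, 2 rose and 2 fell in db/db against db/m, where 0.592% and 0.462% of all genes did. Maob and Maoa, the monoamine oxidases, rose by 1.49 (adjusted p = 0.00239) and 0.65 (adjusted p = 0.0465), and Adh1, an alcohol dehydrogenase, and Aldh3a2, a fatty aldehyde dehydrogenase, fell by 0.50 (adjusted p = 0.0282) and 0.51 (adjusted p = 0.0233). These 4 passed again in db/db+TSF against db/m, and Ces1d, a carboxylesterase, and Mgst1, a membrane-bound glutathione transferase, rose by 0.74 and 0.49 while Ces1f, another carboxylesterase, fell by 0.98. That made 4 of the 26 higher and 3 lower, where 1.22% and 1.92% of all genes were. In db/db against db/m, Ces1d, Mgst1 and Ces1f had 0.45, 0.50 and -0.79 without overlap. They did not pass there (adjusted p = 0.0932, 0.0587 and 0.121). With the formula against saline, limma passed 0 genes of any of these lists, and 4 of 20 regulators, 1 of 4 AHR targets and 2 of 26 other enzymes had an unadjusted p under 0.05, beside 11.7% of all genes.

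The enzyme genes differed in how far arrays of one group lay apart. The median within-group SD, pooled over the 3 groups, was 0.171 for the 76 and 0.141 for all 17740 genes. It was largest for Ugt2b37, at 0.901, which is the 99.9th percentile of all genes, followed by Cyp2b10 at 0.528, Ugt2b38 at 0.502 and Cyp2r1 at 0.48. Cyp2b10, the classical target of the constitutive androstane receptor, owed its spread to db/m replicate 3, at 4.23, where the other 8 arrays read 2.48 to 3.19. With 3 arrays a group, genes with a spread of this size need a large difference to pass.

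Of the 41 genes under the intensity level, 19 were Cyp2 (means 1.75 to 2.65), 6 Cyp3 (1.78 to 2.64), 12 Sult (1.79 to 2.60, all 8 Sult2a genes among them), 3 Ugt2 (1.93 to 2.08) and the other Gstt4 (2.63). No detection calls separate a dim gene from background, so these genes are not called absent. Just inside the cutoff lay Fmo9 (2.66) and Ugt2a3 (2.69), and just outside Cyp2d13 (2.65) and Cyp3a13 (2.64). The means of Cyp2b10, Cyp2b9, Fmo9, Sult1e1, Sult6b2 and Ugt2a3 fell under it in at least 1 group, and none of these 6 passed a test. A further 12 probe sets carried several symbols that included one of the families, and 17 symbols occurred only there, so those genes were not analysed here. Members of these families resemble one another closely in sequence, and signal from a near-identical copy cannot be separated by these probe sets.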

How the data were processed

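The deposited files hold array intensities (linear, 1 value per probe set). Per the submitters' processing notes the tools were Transcriptome Analysis Console and Affymetrix Expression Console; their settings and the genome build are not given in the sources used. No detection calls were used. Of 41345 probe sets, 23521 had 1 gene symbol in the platform annotation, 1814 several and 16010 none; 23328 Entrez identifiers matched the RefSeq table of GRCm38.p6 and 0 symbols changed. Single-symbol probe sets covered 22180 genes, of which 17740 reached the 30th percentile of mean log2(intensity + 1). The pseudocount of 1 understates changes of dim genes.

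With limma 3.58.1 (R 4.3.3; lmFit, eBayes without trend), 3 group means were estimated from the 9 arrays, with adjustment over 17740 genes and a threshold of 0.05; this is the source of every adjusted p unless another setting is named. The fit was tested on simulated data. Alternatives were median scaling, quantile normalization, no pseudocount or 16, no filter or the 50th percentile, the mean of a gene's probe sets, trend, robust and unmoderated variances, array weights, the arrays of 2 groups only, the replicate number as a block, thresholds of 0.10 and 0.01, and leaving out each array. In each, the intensity filter was recomputed.

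The families, the lists of related genes and markers, and the rule for named genes were chosen with earlier results of these data known. The rule named every member past the threshold, up to 2 further members of smallest p in each family, the 6 of smallest p in db/db+TSF against db/db, those next to the intensity cutoff or with a second probe set of opposite direction, every list gene past the threshold (or the 2 of smallest p), and Ahr, Nr1i2, Nr1i3 and Nfe2l2. Cyp2j5, Fmo1, Fmo2, Gsto2, Gclc, Gclm, Gss, Acy1, Acy3, Anpep, Dpep1, Kyat1 and Nat8 fall outside it. They were chosen after their values were seen, as were genes named for their spread. The rule's step on protein sequences was not used here. Promoters are those of a RefSeq table; 66 of 76 members matched. Of 23 listed regulators, 20 were tested; red cell markers and Por were not analysed here.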

Additional observations from a re-analysis of the deposited data

How the results depend on the processing

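The count of 9 enzyme genes past the threshold in db/db against db/m became 14 with an intensity trend in the variance, 1 without moderation, 16 at an adjusted p of 0.10 and 3 at 0.01. Over all genes, 187 became 26 without moderation, 442 at 0.10 and 56 at 0.01. With 1 array left out, the counts ran from 3 to 8 and from 72 to 197. Without db/db replicate 3 and db/db+TSF replicate 2 together, a choice made after seeing the data, they were 5 and 114. Between db/db+TSF and db/m, 14 enzyme genes became 1 without moderation and 8 at 0.01, and 556 genes became 73 without moderation, 1012 at 0.10 and 128 at 0.01. With 1 array left out these ran from 9 to 15 and from 213 to 562, and without the same 2 arrays they were 12 and 270. With formula against saline, 0 genes passed in every setting run.

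The replicate numbers do not pair the arrays: deviations of same-numbered arrays correlated at -0.079 to 0.146. With the replicate number as a block, 5 enzyme genes passed for saline-treated db/db against lean controls, 4 of them among the 9, 11 for formula against lean controls and 0 for formula against saline.

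Uncalled differences that changed sign were as follows. For db/db against db/m, Gstm1 ran from -0.42 to 0.01 with 1 array left out, above 0 without db/m replicate 3, and Ugt2b1 from -0.09 to 0.22, below 0 without db/db replicate 3 and also without the pair of arrays named above (-0.09). For formula against saline, Cyp2d26 was -0.03 with median scaling, ran from -0.02 to 0.07 with 1 array left out and was -0.02 without the pair. Ugt2b34 ran from -0.08 to 0.24 and was -0.19 without the pair, and Fmo5 ran from -0.32 to 0.01; both turned without db/db+TSF replicate 2, and Ugt2b34 also without db/db replicate 3 (-0.01). For formula against lean controls, Cyp1a1 was 0 with either scaling and ran from 0 to 0.09 with 1 array left out, and Cyp2c68 ran from -0.04 to 0.28 and was -0.04 without the pair. The cause was not tested. Family medians moved by no more than the median SE of the family members' differences in 535 cases and by more in 23. Scaling shifted the median of all genes by -0.059 to 0.014. With 3 arrays a group and no detection calls, small differences and dim genes are the least certain.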
